A study of Mus musculus with 4 samples.

Results

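U2, U4 and U5 are small nuclear RNAs (snRNAs) of the major spliceosome, and the mouse annotation holds many copies of each. Members were taken by name: features with the snRNA biotype whose gene name in the authors' deposited tables is exactly U2, U4 or U5. The immunoprecipitate table held 52 such copies among 7569 features (25 of U2, 19 of U4 and 8 of U5), and the input table held 29 among 12883 genes (14 of U2, 13 of U4 and 2 of U5). Liver RNA of wild-type mice and of mice without Fto, all on the C57/Bl6 background, was measured by miCLIP, in which an antibody against methylated adenosine is crosslinked to RNA and the bound fragments are cloned. The 4 groups were wild-type immunoprecipitate, wild-type input, Fto knockout immunoprecipitate and Fto knockout input, each labelled as 3 replicates. The labels give no age, no sex, no way in which Fto was removed, and no statement that replicates were separate animals, and the p-values therefore describe variation among these libraries only, part of which may be technical. Values of single libraries were not analysed here: each copy has the authors' mean over all libraries of a table, a fold change with its standard error (SE), and a p-value. Abundant and scarce below refer to this mean. In the immunoprecipitate the mean is antibody signal over knockout and wild-type libraries together. It is therefore not an RNA level and is not independent of the fold change.

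All of these RNAs are made by RNA polymerase II, start with an adenosine, leave the nucleus with a methylated cap, receive a ring of Sm proteins in the cytoplasm, have the cap trimethylated, and return to the nucleus. U2 pairs with the branch point of the intron. U4 pairs with U6 and keeps it inactive until the spliceosome is activated, and U5 holds the exon ends together for ligation. The adenosine next to the cap can carry a methyl group at N6 in addition to the one on its ribose (m6Am), and Fto, a demethylase, can remove it. The antibody binds m6Am and N6-methyladenosine alike. U2 has a further internal m6Am, made by Mettl4.

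Neither table states its direction. Fto in the input had a log2 fold change of −1.49 (SE 0.27, DESeq2 adjusted p = 3.52e-04, mean 55.8) in the authors' deposited table, and the input fold changes were therefore taken as knockout relative to wild type. The immunoprecipitate was read the same way. That reading rests on a weak agreement of its fold changes with those of the input (Spearman 0.170 across 800 genes, each with a mean of 10 or more in the immunoprecipitate and in the input, snRNAs left out, given as a description). Turned around, every immunoprecipitate sign below changes, while the order of the families by size of the fold change does not.

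In the immunoprecipitate, fold changes were highest in U5 by family median, lower in U4 and lowest in U2. Over all copies U5 spanned the narrowest range, while at means of 500 and above, a limit chosen after the values were seen, the U4 copies did (0.38 against 0.60 for U5 and 1.01 for U2). The median log2 fold change was 3.43 over the 8 U5 copies (range 3.01 to 3.75), 2.56 over the 19 U4 copies (range 0.84 to 8.39) and 1.66 over the 25 U2 copies (range −0.82 to 3.43), from the authors' deposited table. The median of all 7569 features was −1.59, and 29.5% of them were above 0. All U5 and U4 copies and 24 of 25 U2 copies were above 0. The exception in U2, at −0.82 and a mean of 6.85 in the authors' deposited table, holds a value that 842 features share to within 0.0005. One copy passed the authors' adjusted p under 0.05: it was a U5 copy, higher, against 0.895% of the 2347 features with an adjusted p called higher and 3.79% called lower. By DESeq2's unadjusted p under 0.05 the count was 4 for U5, 3 for U4 and 0 for U2, all higher, where 1.88% of features with a p were higher by that rule.

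**Figure D1:**
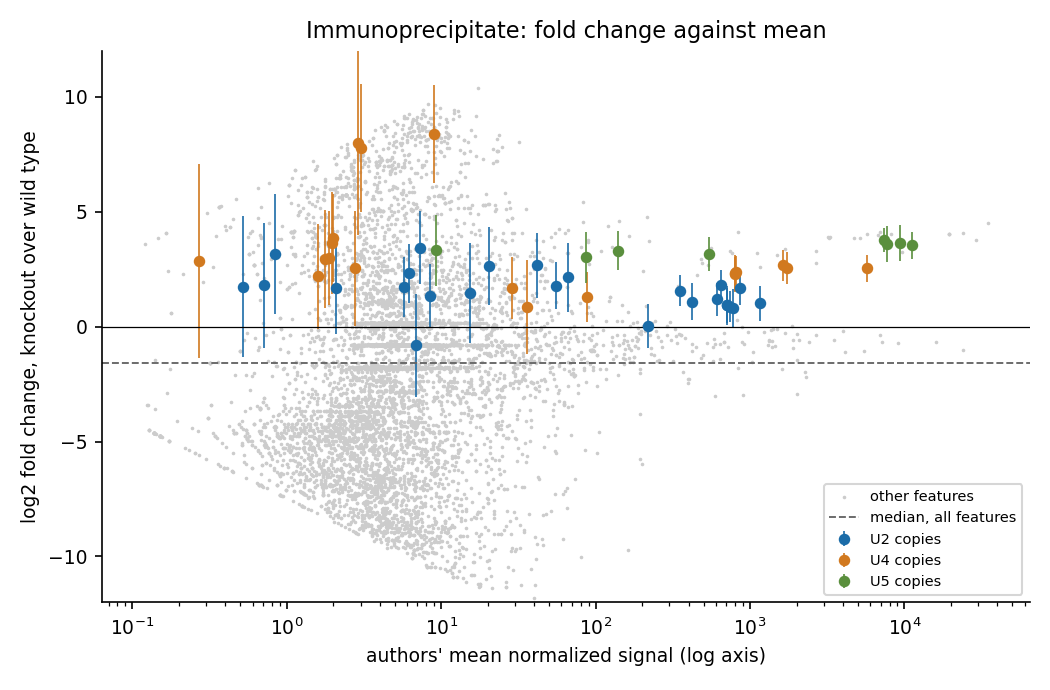
Log2 fold change in the immunoprecipitate (knockout over wild type) against the authors' mean normalized signal on a log axis, for U2, U4 and U5 copies with SE bars and for the other features in grey; 68 features beyond 12 in size lie outside the plotted range. The dashed line is the median of all features (−1.59), and 1 member, a U2 copy at −0.82, lies below 0.

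U5 forms the core of the spliceosome with Prpf8. Its most abundant copy, ENSMUST00000093721, had a mean of 11144 and a log2 fold change of 3.53 (SE 0.60, DESeq2 adjusted p = 0.0523), just outside the threshold, in the authors' deposited table. ENSMUST00000093716 followed with a mean of 9346 and a fold change of 3.63 (SE 0.77, DESeq2 adjusted p = 0.145), from the authors' deposited table. The copy that passed was ENSMUST00000083099, with a mean of 7315 and a fold change of 3.75 (SE 0.52, DESeq2 adjusted p = 0.0169) in the authors' deposited table. It had both the highest fold change and the smallest error of the family.

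A further copy, ENSMUST00000101817, stood at 3.60 (SE 0.79, mean 7758, DESeq2 adjusted p = 0.116) in the authors' deposited table. Together these 4 copies held 97.9% of the summed mean of U5. The remaining 4 were far less abundant, with means of 542, 140, 86.6 and 9.30 and fold changes of 3.15, 3.31, 3.01 and 3.32 in the authors' deposited table. The lowest of the family, ENSMUST00000083724 at 3.01 (SE 1.11), had a DESeq2 adjusted p of 1, from the authors' deposited table. All 8 copies thus lay within 0.74 of each other, which is less than the family's median SE of 0.78, across means from 9.30 to 11144.

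U4 copies formed an abundant and a scarce set. The most abundant, ENSMUST00000101833, had a mean of 5740 and a fold change of 2.54 (SE 0.59, DESeq2 adjusted p = 0.253), from the authors' deposited table, and alone held 49.1% of the summed mean of U4. ENSMUST00000122632 stood at 2.56 (SE 0.70, mean 1735, DESeq2 adjusted p = 0.281) in the authors' deposited table. ENSMUST00000082485, the highest of the family at means of 10 and above, was at 2.66 (SE 0.67, mean 1623, DESeq2 adjusted p = 0.212), from the authors' deposited table. These values differ from each other by far less than 1 SE.

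Another trio of U4 copies had means of 811, 798 and 795 and fold changes of 2.36, 2.33 and 2.28 in the authors' deposited table. Neighbours in this trio were within 2% in mean and 0.1 in fold change. Some of the same reads may have been counted for each, and they are not treated as independent measurements. Their statistics differ (3.58, 2.15 and 4.68), so their counts are not identical. Altogether the 6 copies with means of 500 and above spanned 0.38 on the log2 scale. Below them came copies with means of 87.8, 36.0 and 28.6 and fold changes of 1.28 (SE 1.08), 0.84 (SE 2.04, ENSMUST00000122476, the lowest of the family) and 1.69 (SE 1.35) in the authors' deposited table.

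The other 10 U4 copies had means under 10, and for 9 of them the authors' deposited table leaves the adjusted p blank. ENSMUST00000122710 had the lowest p of the family, with a fold change of 8.39 (SE 2.13, mean 8.98, DESeq2 adjusted p = 0.0600) in the authors' deposited table. ENSMUST00000083259 at 7.98 (SE 4.01, mean 2.90) and ENSMUST00000122799 at 7.77 (SE 2.77, mean 3.02) in the authors' deposited table were singled out after their values were seen. Their SEs are between 2.13 and 4.01, against at most 0.79 in the 6 abundant copies. The highest of the 16 remaining U4 copies was 3.85, so the upper end of the family's range comes from these 3 scarce copies.

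U2 copies were many and similar in abundance: the 8 copies with means from 613 to 1160 held 83.5% of the summed mean of U2. ENSMUST00000083833, the most abundant, stood at 1.01 (SE 0.77, mean 1160, DESeq2 adjusted p = 0.899) in the authors' deposited table. ENSMUST00000083886 stood at 1.68 (SE 0.75, mean 862, DESeq2 adjusted p = 0.963), from the authors' deposited table. The lowest p in the family belonged to ENSMUST00000082748, at 1.80 (SE 0.66, mean 647, p = 0.138, DESeq2 adjusted p = 0.396) in the authors' deposited table. None of these passed, and the 8 copies spanned 1.01 on the log2 scale, from 0.80 to 1.80.

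A pair of U2 copies with means of 711 and 714 had the same fold change of 0.93 in the authors' deposited table and may share reads. Their SEs differ (0.85 and 0.76), so their counts are not identical. Among copies with a mean of at least 10, the lowest was ENSMUST00000083298 at 0.02 (SE 0.95, mean 219) in the authors' deposited table. The highest there was ENSMUST00000082838 at 2.66 (mean 41.9, 95% interval −0.08 to 5.40) in the authors' deposited table. The U2 fold change was lowest in the most abundant copies: the median was 0.97 over the 8 copies with means of 500 and above, 1.56 over the 5 from 50 to under 500, 2.63 over the 3 from 10 to under 50, and 1.73 over the 9 under 10. Errors were larger in scarcer copies, between 0.66 and 0.85 in the most abundant set and between 1.30 and 3.07 in the scarcest.

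**Figure D2:**
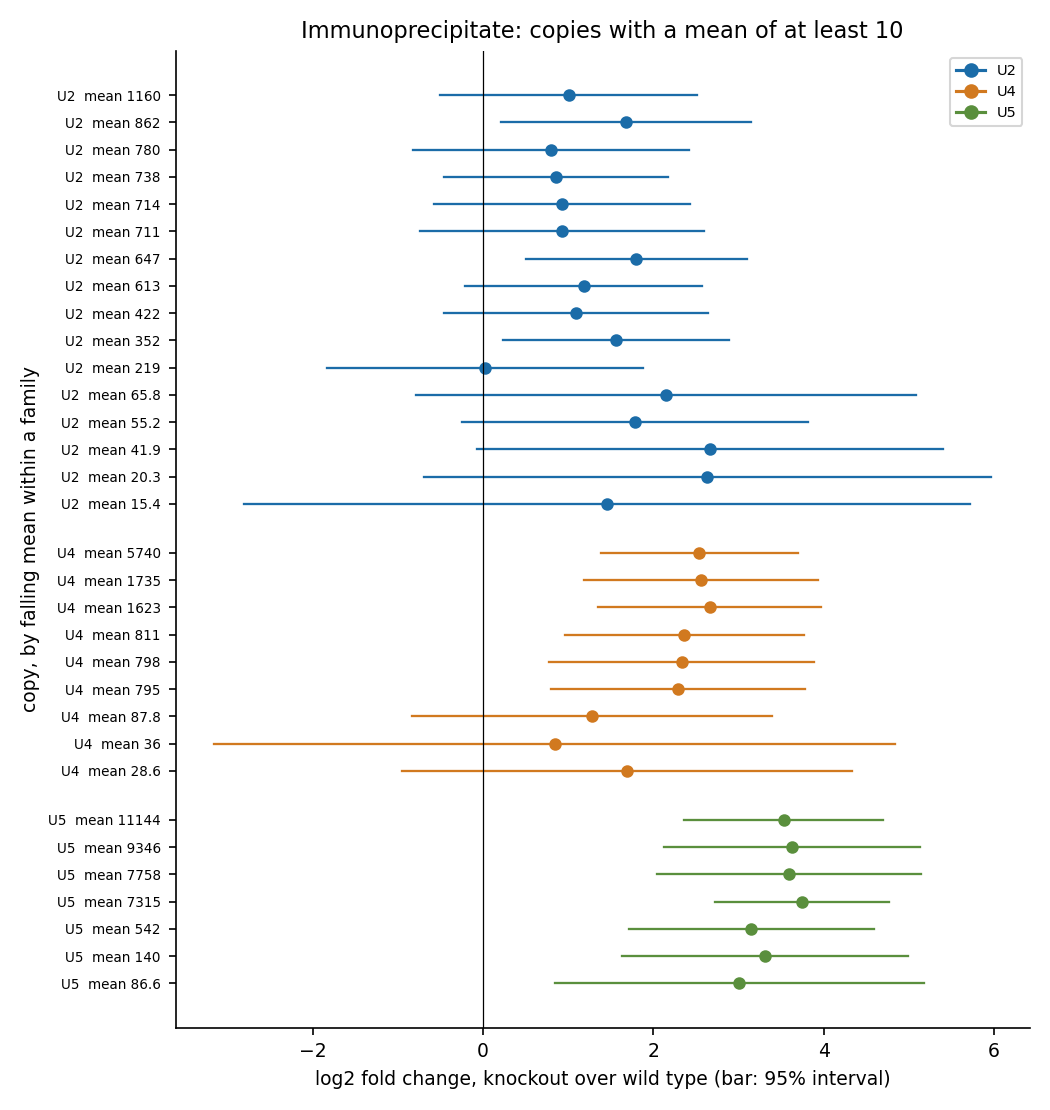
Log2 fold change in the immunoprecipitate with its 95% interval (from the deposited SE) for the 32 copies with a mean of at least 10, ordered by falling mean within U2, U4 and U5. The 7 U5 copies, from 3.01 to 3.75, lie to the right of all 16 U2 and 9 U4 copies, of which the highest are both at 2.66.

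The families were then compared with each other. Of the 52 copies, 32 had a mean of at least 10. Among these the 7 U5 copies, the lowest at 3.01, did not overlap the 16 U2 copies (highest 2.66) or the 9 U4 copies (highest 2.66). Below that mean the families did overlap, with U2 copies up to 3.43 and U4 copies up to 8.39. All 1682 features with a mean of at least 10 had a median of −0.82 and an upper quartile of 0.96, and ranged from −25.0 to 22.6, with 34.8% above 0. The share of them at or above the lowest U5 copy was not counted. U4 and U2 overlapped, with the U4 copy higher in 106 of 144 pairings of a U4 with a U2 copy, and in 86 of 91 at a mean of at least 50. Copies of a family come from the same libraries and may share reads, so these counts describe the table and are not a test. Features of other kinds at means of 500 and above, 56 in number and none of them an snRNA, had a median of −0.67 and ranged from −3.02 to 2.77, with 5 above 0. U1, the snRNA that pairs with the start of the intron, had a higher median than these families. Its 77 copies had a median of 3.88 with 74 above 0, and 19 of the 21 features called higher in the authors' deposited table were U1 copies. At a mean of at least 50 the U1 copies ranged from 2.41 to 4.61, which encloses the U5 copies (3.01 to 3.75). The difference between U1 and U5 was not tested. A high fold change in the immunoprecipitate was therefore not particular to U2, U4 and U5.

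To put an error on the family differences, the most abundant copy of each family was compared, with the SEs combined as if independent. U5 exceeded U2 by 2.52 on the log2 scale (SE 0.97, 95% interval 0.61 to 4.43), the only interval of the 3 that did not include 0. With the second most abundant copies this difference was 1.96 and its interval, −0.15 to 4.06, included 0. U4 minus U2 was 1.54 (SE 0.97, 95% interval −0.37 to 3.44). It was 0.88 with the second most abundant copies, 0.74 with the copies of lowest SE and 1.01 with the medians, all with intervals that include 0. Copies of lowest SE and medians were taken among copies with a mean of at least 10. The error of a median was the median of the copies' SEs. U5 minus U4 was 0.99 (SE 0.84, 95% interval −0.66 to 2.64). These last intervals neither show a difference nor bound it tightly. The copies come from the same libraries, so errors common to a library are not described by the combined SE. The deposited SEs used here do not match the authors' statistic, as described below.

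**Figure D3:**
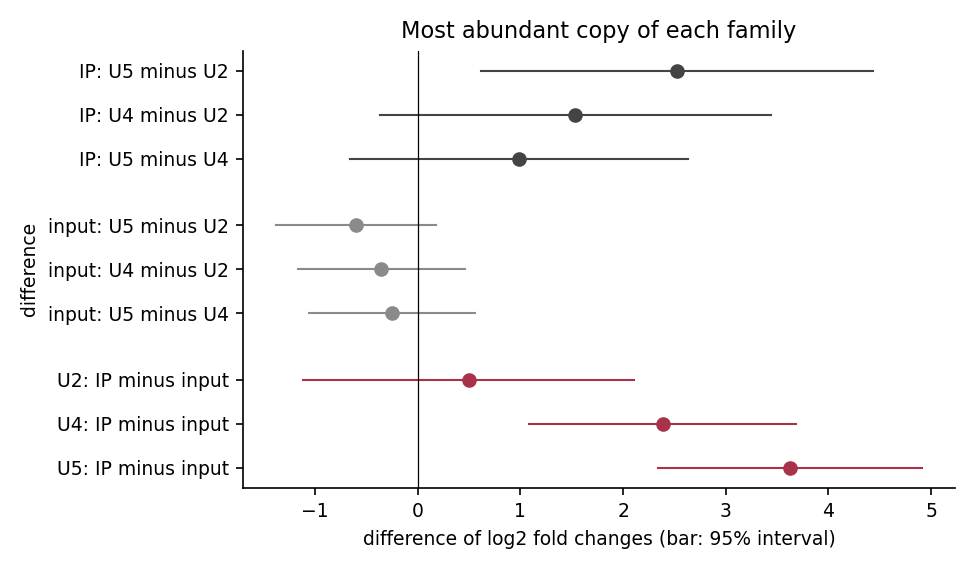
Differences of log2 fold changes between the most abundant copies, with 95% intervals from combined SEs: between families in the immunoprecipitate (IP, dark grey), between families in the input (light grey), and immunoprecipitate minus input within a family (red). The intervals of U5 minus U2 in the immunoprecipitate, and of immunoprecipitate minus input for U4 and U5, lie above 0.

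How many copies pass depends on which of the authors' columns is read. In the immunoprecipitate table the p-value equals the chi-square upper tail (1 degree of freedom) of the deposited statistic, and that statistic was below the squared ratio of fold change to SE in 50 of the 52 copies (23 of U2, 19 of U4 and 8 of U5). For the most abundant U5 copy the statistic was 9.03 against a squared ratio of 35.1, from the authors' deposited table. For the most abundant U4 copy the values were 3.47 and 18.4, and for U2 0.29 and 1.70, from the authors' deposited table. Called from fold over SE with Benjamini-Hochberg adjustment over all features, 6 of 8 U5, 8 of 19 U4 and 0 of 25 U2 copies were higher. Over all 7569 features, 213 (2.81%) were higher and 606 lower by that rule. The U5 and U4 counts here include all 5 and all 6 copies with means of 500 and above. The U4 count also includes the scarce copies ENSMUST00000122710 and ENSMUST00000122799, with means of 8.98 and 3.02. The term that the authors' statistic tests, and the contrast of the printed fold change, were not stated by any source used here, so a fold and its p may not refer to the same comparison.

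**Figure D4:**
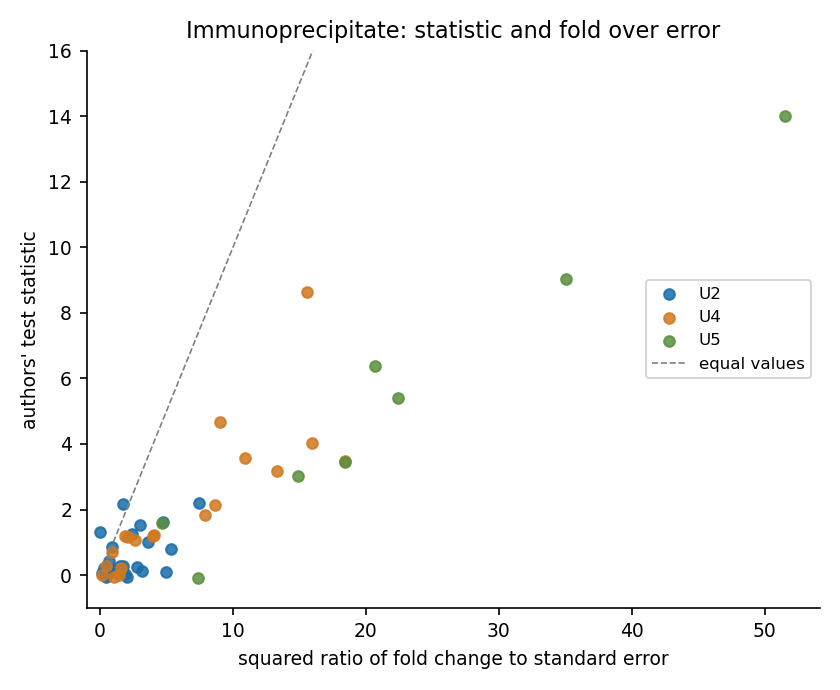
The authors' test statistic in the immunoprecipitate against the squared ratio of fold change to SE for all 52 copies, with a dashed line where the values are equal. All but 2 copies, both of U2, lie below the line, and the called U5 copy is the highest point, at a statistic of 14.0 and a squared ratio of 51.6.

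In the input, which measures RNA level without the antibody, no U2, U4 or U5 copy passed. In bulk liver RNA, fewer cells of a type and less RNA per cell cannot be told apart. None of the 29 copies had a DESeq2 adjusted p under 0.05, where 0.0233% of 12865 genes were called higher and 0.0155% lower, and fold over SE with adjustment over all genes called none of them against 0.0388% of genes. By unadjusted p under 0.05 the count was 1 of 29 copies, against 2.21% of genes. Median log2 fold changes were 0.23 for U2 (range −0.42 to 0.51), −0.00 for U4 (range −0.50 to 0.60) and −0.19 for U5 (−0.28 and −0.09), from the authors' deposited table. The median of all genes was 0.02. Above 0 were 9 of 14 U2, 6 of 13 U4 and 0 of 2 U5 copies, beside 53.5% of all genes. Fold changes in this table are of the size of shrunken estimates, with SEs of at most 0.30.

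The input copies could be placed on the genome. All 29 matched RefSeq genes of GRCm38.p6, the assembly behind mm10, through their gene identifiers, while the immunoprecipitate gives transcript identifiers that were not matched. RefSeq annotates 12 of the 29 as snRNA genes and 17 as pseudogenes, and the families differ in this: 9 of 14 U2 copies and both U5 copies are snRNA genes, against 1 of 13 U4 copies. The U2 snRNA genes are 183 to 193 bases long and the U2 pseudogenes 92 to 179. U4 pseudogenes are 85 to 171 bases long, with the annotated U4 snRNA gene at 141. The U5 genes measure 116 and 117 bases. The reference copies Rnu2-10 and Rnu5g were not among the input genes analysed here.

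The most abundant U2 copy in the input was Gm22973 (chromosome 12, 59040335 to 59040525), an snRNA gene with a mean of 62.0 and a log2 fold change of 0.51 (SE 0.28, p = 0.0725, DESeq2 adjusted p = 0.9998) in the authors' deposited table. It lies in no other RefSeq gene. Gm25202 (chromosome X, 14315401 to 14315591), an snRNA gene, stood at 0.49 (SE 0.29, mean 31.3) in the authors' deposited table. Gm22423 (chromosome 11, 96083673 to 96083856), also an snRNA gene, stood at −0.34 (SE 0.30, mean 17.7) in the authors' deposited table. The 3 copies differ in sign at errors of about the same size. The U2 pseudogene Gm25052 (chromosome 8, 72037642 to 72037757) was the lowest of the family at −0.42 (SE 0.29, mean 6.78) in the authors' deposited table. The 9 U2 snRNA genes had a median of 0.33 and the 5 U2 pseudogenes one of 0.13, with overlapping ranges (−0.34 to 0.51 and −0.42 to 0.33).

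Among U4 copies, the most abundant in the input was the pseudogene Gm23459 (chromosome 14, 106261124 to 106261253), with a mean of 14.6 and a fold change of 0.16 (SE 0.30) in the authors' deposited table. Gm25131 (chromosome 15, 81039643 to 81039793), a pseudogene, was the lowest at −0.50 (SE 0.30, mean 13.9) in the authors' deposited table. The pseudogene Gm25176 (chromosome 19, 26260331 to 26260493) was the highest at 0.60 (SE 0.30, p = 0.0482, DESeq2 adjusted p = 0.9998) and was the copy with an unadjusted p under 0.05, in the authors' deposited table. These are neighbours in abundance, and they cover the whole range of the family. The U4 snRNA gene Gm25899 (chromosome 4, 83527628 to 83527768) stood at 0.13 (SE 0.28, mean 5.23) in the authors' deposited table.

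Of the U5 copies, Gm22365 (chromosome 19, 61164365 to 61164481) had a mean of 37.4 and a fold change of −0.09 (SE 0.28) in the authors' deposited table. Gm23102 (chromosome 17, 94869873 to 94869988) had a mean of 5.57 and a fold change of −0.28 (SE 0.28) in the authors' deposited table. Per 100 bases of the RefSeq gene, the mean of the most abundant copy was 32.5 for U2, 32.0 for U5 and 11.2 for U4. The means carry no error, so U2 and U5 cannot be put in order.

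**Figure D5:**
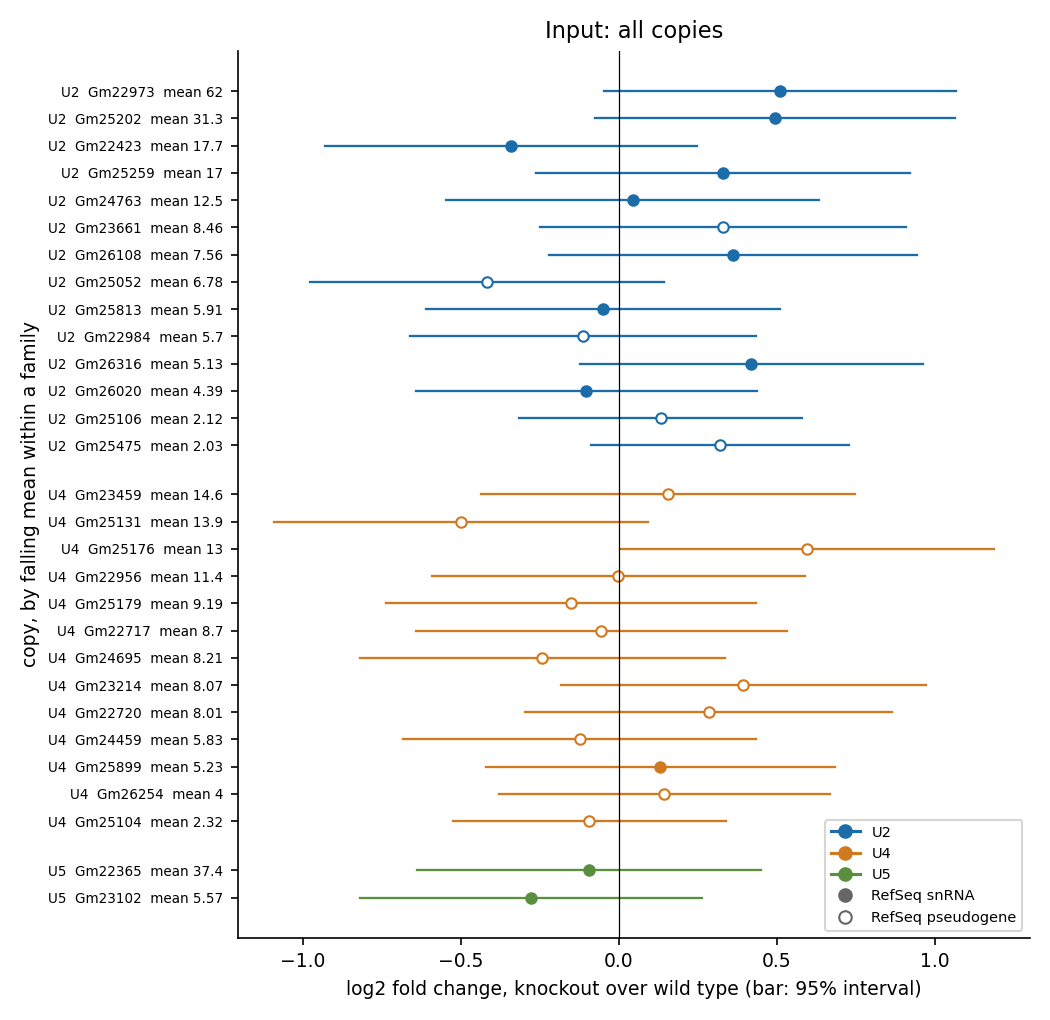
Log2 fold change in the input with its 95% interval for all 29 copies, ordered by falling mean within U2, U4 and U5; filled points are RefSeq snRNA genes and open points RefSeq pseudogenes. The interval of 1 copy, the U4 pseudogene Gm25176 at 0.60, does not include 0.

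Many input copies lie in the span of another gene, whose reads could be counted with theirs where the counting did not use strand or exons. Overlap with a protein-coding RefSeq gene was found for 7 of 13 U4, 4 of 14 U2 and 1 of 2 U5 copies. The U4 pseudogene Gm26254 (fold change 0.14) lies in Map3k7, a kinase gene with a mean of 105 and a fold change of 0.08 (SE 0.25), and the U2 snRNA gene Gm26020 (mean 4.39, fold change −0.10) lies in Atrx, a chromatin remodeller gene with a mean of 179 and a fold change of −0.15 (SE 0.22), all in the authors' deposited table. For Gm25131 at −0.50, the overlapping gene Mrtfa stood at −0.01 (SE 0.30, mean 14.8) in the authors' deposited table. The U2 snRNA gene Gm25259 at 0.33 (SE 0.30, mean 17.0) overlaps Lrfn3, which stood at −0.34 (SE 0.30, mean 19.9) in the authors' deposited table. What share of a copy's reads came from the overlapping gene was not tested. Gm22973 and Gm25202, the most abundant U2 copies, and Gm23459, the most abundant U4 copy, overlap no other RefSeq gene, while the U5 copy Gm22365 lies in the pseudogene Gm6020.

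The immunoprecipitate was next set against the input within each family, using the most abundant copy of each table. The difference was 3.63 for U5 (SE 0.66, 95% interval 2.34 to 4.91) and 2.39 for U4 (SE 0.66, 95% interval 1.08 to 3.69). For U2 it was 0.50 (SE 0.82, 95% interval −1.11 to 2.11), an interval that includes 0. The U2 value depends on the copies chosen: it was 1.18 with the second most abundant copies and 1.29 with those of lowest SE (95% interval −0.12 to 2.70). With the medians of copies with a mean of at least 10 (1.32 and 0.33) it was 0.99, with the median of the copies' SEs as error. Each of these intervals included 0. The copies compared need not be the same gene, since transcript and gene identifiers were not matched. For U4 the input copy was the pseudogene Gm23459 with a mean of 14.6, against an immunoprecipitate copy with a mean of 5740. The U4 difference therefore does not subtract the level of an annotated U4 snRNA gene. The input fold changes are of shrunken size and those of the immunoprecipitate are not. The tables were scaled separately, and the errors are treated as independent. The contrast of the immunoprecipitate fold change was not stated. The authors' statistic was 9.03 against a squared fold over SE of 35.1 for U5, and 3.47 against 18.4 for U4. By the authors' test neither immunoprecipitate copy passed (DESeq2 adjusted p = 0.0523 and 0.253), so an interval above 0 here is not a call.

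In the input itself the differences between the same families were below 0, the opposite sign to the immunoprecipitate as read here and the same sign as the immunoprecipitate turned around: U5 minus U2 was −0.60 (SE 0.40, 95% interval −1.38 to 0.18), U4 minus U2 was −0.35 (SE 0.41, 95% interval −1.17 to 0.46) and U5 minus U4 was −0.25 (SE 0.41, 95% interval −1.05 to 0.55). All of these intervals include 0. With the second most abundant copies, U4 minus U2 was −0.99 (95% interval −1.82 to −0.17) and U5 minus U4 turned to 0.22 (95% interval −0.58 to 1.02). The comparison of order rests on the assumed direction of the immunoprecipitate. Turned around, its most abundant copies stand at −1.01 for U2, −2.54 for U4 and −3.53 for U5, which is the order of the input copies (0.51, 0.16 and −0.09).

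Apart from Fto, no gene on the lists of proteins that work with these RNAs was called in the input. Of 100 listed genes in 6 lists, 94 had a row in the input, with a median log2 fold change of 0.08 and 61 above 0. Over all genes of the input the median was 0.02, and 53.5% were above 0. Only 0.0233% of genes were called higher and 0.0155% lower, so the absence of calls says little about these lists. Among U2 particle proteins, Sf3b3, a subunit of the complex at the branch point, stood at 0.44 (SE 0.25) and Sf3b6 at −0.44 (SE 0.27) in the authors' deposited table. That list had a median of 0.10 over 21 genes, with 14 above 0. Of the proteins of the particle that joins U4, U5 and U6, the GTPase gene Eftud2 stood at 0.46 (SE 0.27) and Sart1 at −0.49 (SE 0.29) in the authors' deposited table. In this list, 14 of 18 genes were above 0, with a median of 0.07. The 7 measured Sm protein genes had a median of 0.18, with 5 above 0. The Sm genes of lowest p were Snrpf at −0.31 (SE 0.27), Snrpd1 at −0.31 (SE 0.29) and Snrpd3 at 0.28 (SE 0.28) in the authors' deposited table, none of them called.

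For transcription and 3' end formation of snRNAs, 22 genes had a median of 0.13. The Integrator subunit genes Ints2 at 0.65 (SE 0.29, p = 0.0246) and Ints13 at 0.54 (SE 0.28, p = 0.0491) had an unadjusted p under 0.05, with a DESeq2 adjusted p of 0.9998 each, in the authors' deposited table. Of the 94 listed genes with a row, 3 had such an unadjusted p, Fto among them, beside 2.21% of all genes in the input. Export, assembly and maturation genes had a median of 0.04 over 18 genes, with Smn1, which loads the Sm ring, at 0.40 (SE 0.30) in the authors' deposited table. Of the enzymes of adenosine methylation, Mettl4, named for its role on U2 after its value was seen, stood at 0.22 (SE 0.29), Pcif1, which methylates the adenosine next to the cap of messenger RNA, at −0.27 (SE 0.28), and Mettl16 at 0.23 (SE 0.29) in the authors' deposited table. In the immunoprecipitate these lists had 34 transcripts of 23 genes, of which only 2 had a mean of at least 10 and an adjusted p, so the others could not be called. These were the splice site factor U2af1 at −0.95 (SE 1.18, mean 165) and the branch point complex subunit Sf3b4 at 1.62 (SE 1.32, mean 10.3) in the authors' deposited table, and neither was called. Sf3b4 was named after its value was seen.

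The tissue label was checked in the input. All 8 hepatocyte markers were present with means from 762 to 84262, and the highest marker of Kupffer, endothelial, stellate, bile duct, lymphocyte or erythroid cells had a mean of 335. The 4 erythroid markers had a median log2 fold change of −0.50 (range −0.99 to −0.32), and the part of such shifts in the snRNA values was not tested.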

How the data were processed

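The authors deposited comparison tables made with DESeq2, which the submitters' processing notes name beside STAR, bedtools 2.25.0 and the build mm10, with no role or settings. Per the file headers, the authors' tables give a mean normalized signal, a log2 fold change and its SE, a test statistic (a score), a p-value, and that p-value after adjustment. Counting rules, the model and depth per library were not stated by any source used here, so the depth is unknown and no replicate could be left out. The input statistic equals fold change over SE (largest difference 1.82e-14). The immunoprecipitate p-value equals the chi-square tail of its statistic, set to 1 for statistics below 0.

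Members were chosen by name with Python 3.11.15 and pandas 2.3.3. Computed here were medians, counts, differences with combined SEs and 95% normal intervals, and adjusted p-values from fold over SE. The last were run on simulated data whose noise was drawn from the deposited SEs. That run checks the calculation and cannot show whether those SEs suit such a test. RefSeq tables of GRCm38.p6 gave positions. Members, lists and tests were chosen with earlier results of these data known. Named in full were, per family and table, the copies highest and second highest in mean, lowest in p, highest and lowest in fold change at a mean of at least 10, and any called copy, and per list up to 3 genes of lowest p. Alternatives were other thresholds, minimum means of 10 and 50, centring, weighting, other representative copies and the turned direction. No sequence of these RNAs is printed.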

Additional observations from a re-analysis of the deposited data

How the results depend on the processing

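The number of called copies in the immunoprecipitate was 1 by the authors' adjusted p and stayed 1 at minimum means of 10 and 50 and with p adjusted over all features with a p. It was 14 by fold over SE and 3 at an adjusted p under 0.1. The cause was not tested. In the input it was 0 under every one of these settings. Centring on the median of all features raised the immunoprecipitate medians to 3.25 for U2, 4.15 for U4 and 5.02 for U5, equally in each because −1.59 is subtracted. The rise was more than the family's median SE for U2 and U5, and less for U4, whose median SE was 2.04. Minimum means, repeated values counted once and weighting by mean moved no family median by more than that SE (U2 1.09 to 1.66, U4 2.33 to 2.56, U5 3.43 to 3.61). A minimum mean of 50 leaves no U4 or U5 copy in the input. U5 minus U2 was 1.96 with the second most abundant copies, where its interval included 0. It was 1.94 with the copies of lowest SE (95% interval 0.29 to 3.60). With the medians of copies with a mean of at least 10 it was 2.21 (95% interval 0.03 to 4.39). Both of these intervals lie above 0, that of the medians barely. The error of a median was taken as the median of the copies' SEs, which is not an error of the median itself. With the immunoprecipitate read as wild type over knockout, chosen after seeing the data, the difference from the input was −1.52 for U2, −2.70 for U4 and −3.44 for U5. Of the alternatives, 51 kept direction and side of the threshold or moved less than the error, 4 moved, 1 weakened and 3 reversed. The 1 that weakened was U5 minus U2 with the second most abundant copies, whose interval came to include 0. The 3 reversals came from turning the sign of the immunoprecipitate fold change, so they are no test of stability. No paired analysis was possible because the tables hold no values of single replicates.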

Other observations

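Of the 52 immunoprecipitate copies, 4 have a test statistic below 0 and a p-value of exactly 1 in the authors' deposited table, as 216 of all 7569 features have a statistic below 0. Among them are the U5 copy ENSMUST00000083724, with a fold change of 3.01 (SE 1.11), and the U2 copy ENSMUST00000083808, with 2.14 (mean 65.8), in the authors' deposited table. No adjusted p is given for 16 of the 52 copies (7 of U2, 9 of U4 and 0 of U5). Among the 20 features of highest mean in the immunoprecipitate 5 are members, while in the input 19 of 29 members have a mean under 10. Across the 52 copies the statistic and the squared ratio of fold change to SE had a Spearman correlation of 0.747, and across all features 0.827, given as descriptions since copies share libraries and may share reads. On chromosome X lie 4 of the 14 U2 copies of the input and none of the 13 U4 or 2 U5 copies.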
